A study of Bos taurus with 96 samples.

Results

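The genes described are 9 markers of B cells and T cells: CD79A, CD79B and MS4A1 for B cells, CD3D, CD3E, CD3G, CD2 and CD5 for T cells, and CCR7 for homing of both. Probes were matched to them by the bovine RefSeq accession each probe carries or by the probe tables of the study. In this way 17 probes were found for 8 of the 9 genes, and no probe was found for CD79B. All 8 had a tested probe, out of 10680 named genes with one. Of the 17 probes, 12 were among the 34227 probes tested, and the other 5 were in the scanner files alone.

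T cells recognise antigen through a receptor that signals through the CD3 chains, of which CD3D, CD3E and CD3G encode the delta, epsilon and gamma chains. CD2 is an adhesion receptor of T cells and natural killer cells, and CD5 dampens signalling by the T cell receptor and also marks a subset of B cells. CD79A and CD79B are the signalling chains of the B cell receptor, MS4A1 is the surface antigen CD20 of B cells, and CCR7 is the chemokine receptor that guides naive lymphocytes and dendritic cells into lymphoid tissue. Fat around the abdominal organs can hold small clusters of lymphocytes, which in the omentum are called milky spots.

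Expression was measured on 96 one-colour Agilent bovine arrays, 1 per tissue sample, from steers of 3 genetic backgrounds (Angus, Hereford and Wagyu x Angus) that were 26 months old after 259 days in a feedlot. Fat was dissected after slaughter from 5 depots: subcutaneous over the rump (SC), intramuscular (IMF), intermuscular (Inter), around the kidney (Kid) and omental (Omen). Each depot had 12 arrays, 4 per background, all of the Pasture_Feeding label, and the comparison of depots asks how depots of the same kind of animal differ. The longissimus dorsi muscle with its marbling fat (LD) had 36 arrays, 24 labelled Pasture_Feeding and 12 labelled Supplemental_Feeding, and some of these animals were killed earlier, which the labels do not mark. By the study, these feedings refer to the period just after weaning. The study dissected the depots from the same carcasses, so steers recur between depots, but the labels do not say which arrays share a steer. RNA samples had been chosen for integrity. The p-values therefore measure the spread between these samples, taken as independent.

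Each value is a processed spot signal in log2 units from which the array's own 75th percentile was subtracted, so a value of -5 is a spot 5 doublings dimmer than that percentile. The median 75th percentile of a tissue lay between 9.05 (SC) and 10.20 (Inter) on the log2 scale. The median share of probes well above background was 76.9% on the SC arrays, 75.1% on the LD arrays and between 82.7% and 83.8% in the other 4 tissues. Most depots were scanned largely on 1 of 3 days: 11 of the 12 SC arrays on the first, all 12 Inter arrays on the second, and all 12 IMF and 10 of the 12 Omen arrays on the third. Over the 3 days the Kid arrays fell into 5, 6 and 1, and the LD arrays into 16, 12 and 8. In bulk tissue, fewer cells of a type and less RNA per cell cannot be told apart.

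By all but 1 of the tested probes of the CD3 complex, Omen and Kid had the highest mean levels. The 3 CD3 genes are listed next to each other in the RefSeq annotation of cattle. For CD3E, probe A_73_104727, the 12 Omen arrays had a lowest value of -1.72, a median of -0.98 and a highest of 0.37. The SC arrays had -2.65, -2.13 and -1.19, and the IMF arrays -3.00, -2.40 and -1.67. All 12 Omen arrays lay above the SC median and 7 lay above every SC array. The Inter arrays had -2.59, -1.97 and -1.04, and the Kid arrays -2.43, -1.13 and -0.28. Kid and Omen overlapped, with 2 Omen arrays above every Kid array and 2 Kid arrays below every Omen array. CD3E was 2.18-fold higher in Omen than in SC (1.13 ± 0.21 log2, SE, limma adjusted p = 0.000148) and 2.55-fold higher than in IMF (1.35 ± 0.22, limma adjusted p = 1.38e-05). Against Inter it was 1.95-fold higher (0.97 ± 0.21, limma adjusted p = 0.00485), and against Kid the difference of 0.28 ± 0.25 did not pass the limma test (adjusted p = 0.478). A second CD3E probe, A_73_P109026, gave 0.97 ± 0.22 against SC, 1.02 ± 0.21 against IMF, 1.20 ± 0.21 against Inter and 0.53 ± 0.24 against Kid, of which the first 3 passed.

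**Figure D1:**
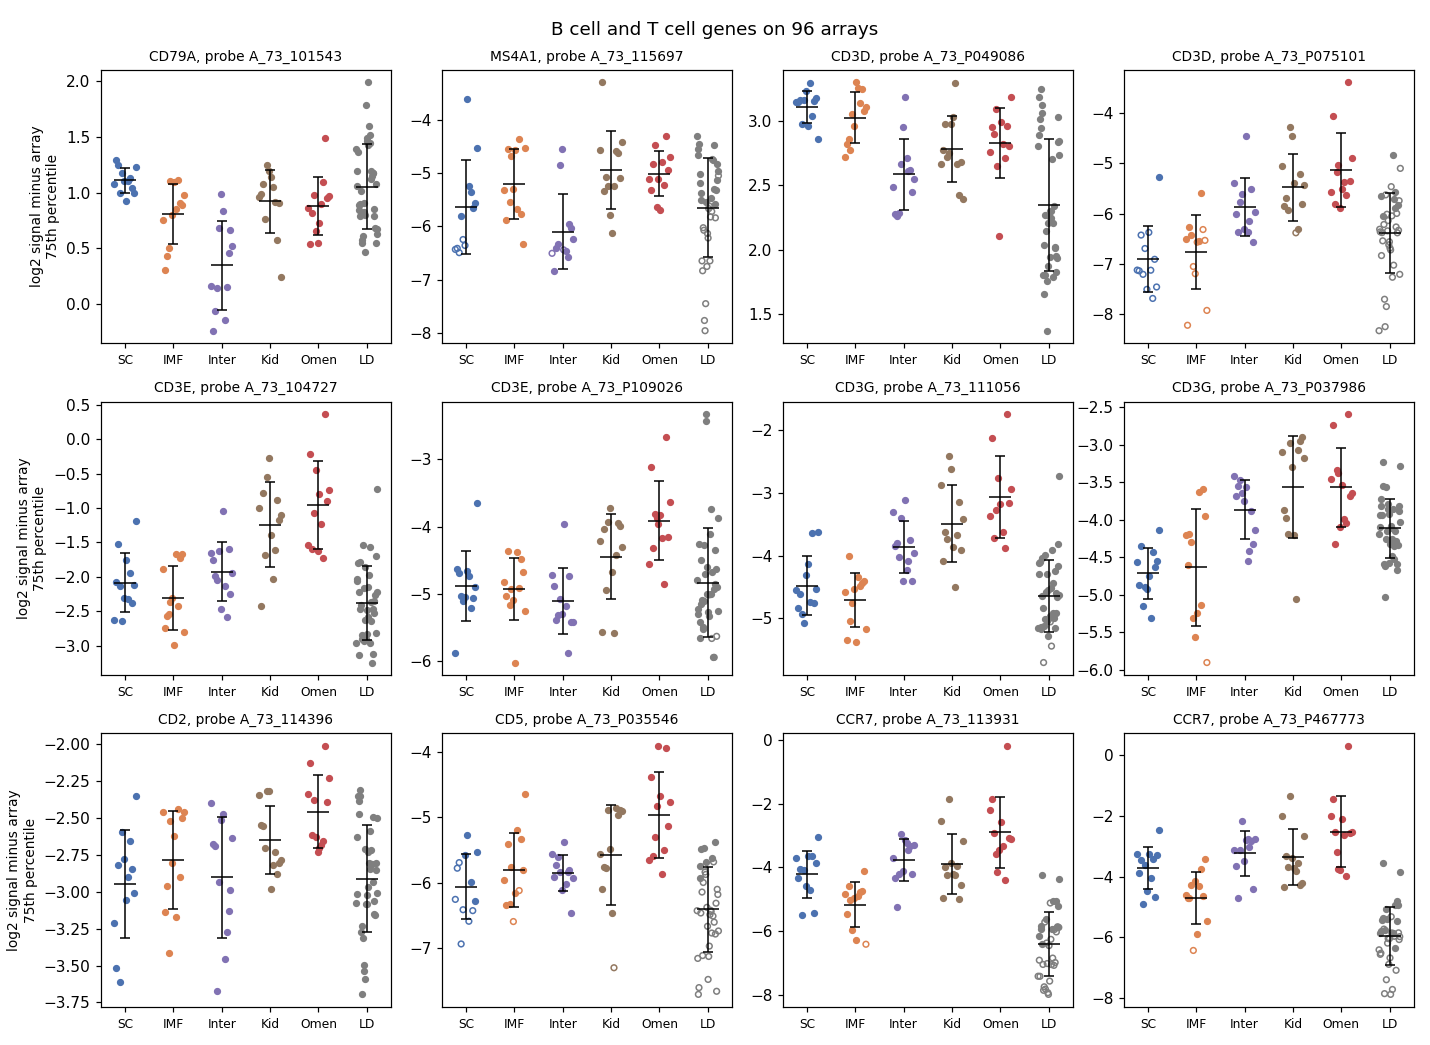
Values of the 12 tested probes on 96 arrays (log2 signal minus the array's 75th percentile) by tissue; filled points were well above background on that array, open points were not, and black bars give mean and SD. The CD3E, CD3G, CD5 and CCR7 probes are highest in Omen or Kid, while probe A_73_P049086 of CD3D and the CD79A probe are bright in every tissue, LD included.

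CD3G was measured by 2 tested probes, both well above background on all 12 SC, Inter, Kid and Omen arrays. For probe A_73_111056 the Omen arrays ran from -3.88 over a median of -3.18 to -1.74, on 11 arrays, because the spot was an outlier on 1. The SC arrays ran from -5.07 over -4.58 to -3.62, and the IMF arrays from -5.38 over -4.56 to -4.00. All 12 IMF arrays lay below every Omen array, and 10 of the 12 SC arrays did. CD3G by this probe was 2.66-fold higher in Omen than in SC (1.41 ± 0.23, limma adjusted p = 2.5e-05), 3.11-fold higher than in IMF (1.64 ± 0.22, limma adjusted p = 1.42e-06) and 1.73-fold higher than in Inter (0.79 ± 0.22, limma adjusted p = 0.0197). Probe A_73_P037986 gave 1.15 ± 0.17 against SC and 1.07 ± 0.26 against IMF, both past the threshold, but only 0.30 ± 0.18 against Inter (limma adjusted p = 0.291) and -0.01 ± 0.24 against Kid. Another CD3G probe, outside the deposited table, A_73_P109021, was well above background on 9 of 12 SC, 4 of 12 IMF and 12 of 12 Omen arrays and differed from the others, with -0.10 ± 0.27 against SC (limma adjusted p = 0.799, all probes tested) and 0.61 ± 0.19 against Inter (limma adjusted p = 0.0361). The order of depots for A_73_P037986 had Kid first, with a mean of -3.56, and Omen next, with -3.57.

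The 2 tested probes of CD3D disagreed. Probe A_73_P075101 was dim, and was well above background on 1 of 12 SC, 5 of 12 IMF, 12 of 12 Inter, 11 of 12 Kid, 12 of 12 Omen and 7 of 36 LD arrays. Its SC arrays ran from -7.68 over -7.12 to -5.28 and its Omen arrays from -5.88 over -5.36 to -3.39, so 11 of the 12 SC arrays lay below every Omen array. By this probe the log2 difference of Omen was 1.77 ± 0.27 from SC (limma adjusted p = 1.24e-05) and 1.62 ± 0.28 from IMF (limma adjusted p = 3.87e-05), sizes that rest on SC and IMF spots mostly not well above background, and the difference from Inter of 0.73 ± 0.26 did not pass (limma adjusted p = 0.06), though it did without the Inter array of slide 5, position 1 (0.86) or the Omen array of slide 10, position 4 (0.80). Probe A_73_P049086 was well above background on all 96 arrays, at a mean of 3.11 in SC and 2.35 in LD, and was 1.22-fold lower in Omen than in SC (-0.28 ± 0.09, limma adjusted p = 0.0124). Among the fits that left out 1 array, its difference of 0.24 from Inter passed only without the Omen array of slide 10, position 4 (0.31). Over the 60 fat arrays, each minus the mean of its depot, the 2 probes had a Pearson r of 0.15, while A_73_P075101 had an r of 0.72 with CD3E and of 0.73 with CD3G (A_73_111056). These are descriptions over arrays that share a slide and a scan day with others.

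CD2 and CD5 had the same order of Omen first and Kid next. For CD5 the Omen arrays had a lowest value of -5.87, a median of -4.98 and a highest of -3.90, and the SC arrays -6.94, -6.12 and -5.27. All 12 Omen arrays lay above the SC median, and the probe was well above background on 5 of 12 SC and 7 of 36 LD arrays. The log2 difference of CD5 between Omen and SC was 1.101 ± 0.23 (limma adjusted p = 0.000388), set against SC spots mostly not well above background. CD5 was 1.79-fold higher in Omen than in IMF and 1.85-fold higher than in Inter, and its difference of 0.62 ± 0.28 from Kid did not pass (limma adjusted p = 0.144). CD2 varied less, with Omen arrays between -2.73 and -2.01 and SC arrays between -3.61 and -2.35. It was 1.40-fold higher in Omen than in SC (0.49 ± 0.13, limma adjusted p = 0.00276), 1.25-fold higher than in IMF and 1.36-fold higher than in Inter. The call against Inter was lost when any 1 of 6 arrays was left out (0.38 to 0.43), namely the Inter arrays of slide 3, position 4, and slide 5, positions 2 and 3, and the Omen arrays of slide 7, position 2, slide 11, position 4, and slide 19, position 4.

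CCR7 had the widest range of the genes. By probe A_73_P467773 the Omen arrays had a lowest value of -3.98, a median of -2.54 and a highest of 0.32, the SC arrays -4.89, -3.53 and -2.45, and the IMF arrays -6.44, -4.63 and -3.41. The LD arrays had -7.89, -5.88 and -3.56, and only 15 of 36 were well above background. The Omen arrays overlapped the SC arrays, of which 4 lay below every Omen array. CCR7 was 2.32-fold higher in Omen than in SC (1.21 ± 0.38, limma adjusted p = 0.0109) and 4.55-fold higher than in IMF (2.18 ± 0.40, limma adjusted p = 6.19e-05). Against Inter (0.72 ± 0.38) and Kid (0.84 ± 0.41) it did not pass. The other tested probe, A_73_113931, followed it closely over the 60 fat arrays (r = 0.95) and gave 1.31 ± 0.37 against SC, 2.26 ± 0.36 against IMF and 0.98 ± 0.40 against Kid. Against Kid, among the fits that left out 1 array, it passed only without the Kid array of slide 21, position 1 (1.16, limma adjusted p = 0.0456). CCR7 was also 1.96-fold lower in IMF than in SC (-0.97 ± 0.31, limma adjusted p = 0.00753).

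**Figure D2:**
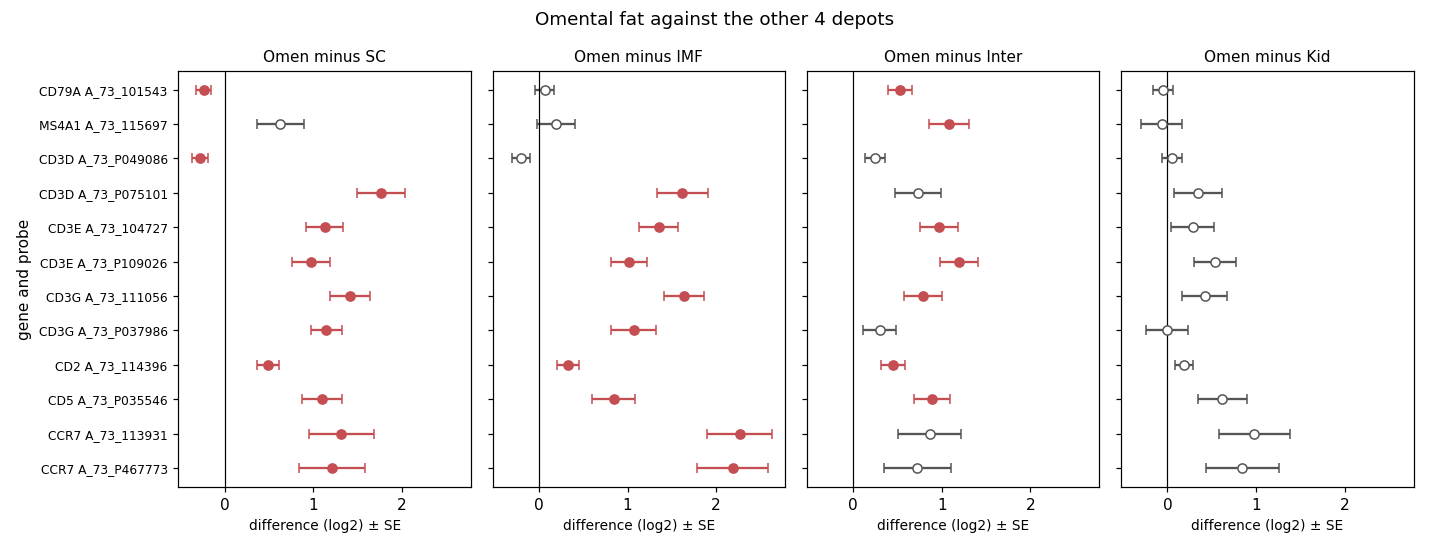
Difference of Omen from SC, IMF, Inter and Kid for the 12 tested probes (log2, with SE; filled red points passed a limma adjusted p of 0.05). The CD3E, CD3G, CD5 and CCR7 probes and the dim CD3D probe lie to the right against SC and IMF, the bright CD3D probe lies to the left, and no point is filled against Kid.

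Of the B cell genes, MS4A1 was highest in Kid and Omen, and CD79A was highest in SC. MS4A1 (probe A_73_115697) had Omen arrays from -5.69 over a median of -5.03 to -4.31, SC arrays from -6.49 over -5.73 to -3.61 and Kid arrays from -6.12 over -5.08 to -3.30. All 12 Omen arrays lay above the SC median, but 1 SC array lay above every Omen array. The difference of 0.63 ± 0.27 between Omen and SC did not pass (limma adjusted p = 0.0581). Without that SC array, on slide 16, position 3, it was 0.81 and passed (limma adjusted p = 0.00343), and it also passed without the SC array of slide 19, position 1 (0.73) or either of 2 Omen arrays, slide 10, position 3, and slide 11, position 1 (both 0.69). Inter had the lowest levels, from -6.83 over -6.36 to -4.54, and MS4A1 was 2.12-fold higher in Omen than in Inter (1.08 ± 0.23, limma adjusted p = 0.00325) and 2.22-fold higher in Kid than in Inter (1.15 ± 0.28, limma adjusted p = 0.00941). This probe was dim, and was well above background on 7 of 12 SC, 10 of 12 Inter, 12 of 12 Kid and 12 of 12 Omen arrays. Its median processed signal was 9.4 in SC, 15.4 in Inter, 34.4 in Kid and 33.8 in Omen, so these sizes rest on dim spots. A dimmer MS4A1 probe outside the deposited table, A_73_105053, was well above background on 1 of 12 SC and 8 of 12 Omen arrays, and its log2 difference of 1.42 ± 0.33 (limma adjusted p = 0.00125, all probes tested) was set against SC spots mostly not well above background.

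CD79A (probe A_73_101543) was well above background on all 96 arrays, with a mean of 1.06 in LD and 1.11 in SC, a pair that was not tested. Its Omen arrays ran from 0.54 over 0.88 to 1.49, and only 1 of the 12 lay above the SC median of 1.11. CD79A was 1.18-fold lower in Omen than in SC (-0.23 ± 0.09, limma adjusted p = 0.0271, and 0.0511 without the Omen array of slide 7, position 2) and 1.44-fold higher in Omen than in Inter (0.53 ± 0.14, limma adjusted p = 0.0128). The dim CD79A probe outside the table, A_73_P109866, was well above background on 8 of 12 Kid, 4 of 12 Omen and 0 of 12 SC arrays. Whether the bright CD79A and CD3D probes measure these genes was not settled, and they are 2 of the 12 probes counted and enter the B cell and T cell means. Over the 60 fat arrays the bright CD79A probe had an r of 0.61 with the bright CD3D probe and of 0.22 with MS4A1.

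Counted over the 12 probes, 11 passed between Omen and SC, 9 higher and 2 lower in Omen, where 45.7% of all probes passed in either direction and 20.5% were higher in Omen. Against IMF 9 passed, all higher in Omen, beside 56.2% of all probes in either direction and 28.4% higher. Against Inter 7 passed, all higher in Omen, beside 13.6% in either direction and 7.69% higher. Against Kid none of the 12 passed by limma, beside 12.1% of all probes, and 3 had an unadjusted p under 0.05. The 12 probes include repeated probes of a gene. Counted by the 1 representing probe of each gene, 7 of 8 genes passed against SC, 5 against IMF, 5 against Inter and 0 against Kid. The median difference over the 12 probes was 1.11 against SC, 1.04 against IMF, 0.76 against Inter and 0.31 against Kid, and that over all probes was -0.03, -0.02, -0.00 and -0.02.

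The count against SC changed with a term for scan day and with the correction of dim spots, and the part of either in the differences was not tested. With scan day as a term over all 96 arrays, 6 of the 12 probes passed between Omen and SC, namely both CD3E probes, both CD3G probes, CD3D (A_73_P075101) and CD5, with differences from 0.96 to 1.42, and MS4A1 turned to -0.49. The third scan day held 10 Omen arrays and 1 SC array, and none passed within it by limma, where the lone array was assumed to vary like the others and the SE of the CD3, CD5 and CCR7 differences, the bright CD3D probe left out, was 0.52 to 1.06. That 1 SC array, an Angus sample on slide 19 beside 2 Omen arrays, had the highest SC value of 8 of the 12 probes. The mean of the 10 Omen arrays of that day differed from it by 0.25 and -0.25 for the 2 CD3E probes, by 0.52 and 0.60 for CD3G, by 0.44 for CD5 and by 0.31 and 0.19 for CCR7. With the normexp background correction and an offset of 50, the bright CD3E probe stayed past the threshold, higher in Omen than in SC (0.76), and the other 4 that passed were lower in Omen, the bright CD3D probe (-0.23) and CD79A (-0.23) as before, and CD5 (-0.30, limma adjusted p = 0.0276) and MS4A1 (-0.48, limma adjusted p = 0.00115) with the direction turned. CD3D (A_73_P075101) turned to -0.27 and CD3E (A_73_P109026) to -0.05 without passing, while the median of all probes moved to -0.26. The median processed signal in SC was 9.2 for CD5, 4.5 for CD3D (A_73_P075101) and 15.7 for CD3E (A_73_P109026), all under the offset, and 128 for CD3E (A_73_104727).

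Omen against IMF did not share this confounding in full, since 10 Omen and all 12 IMF arrays were scanned on the third day. Within that day the same number of probes passed, 9 of 12. With slide as a random block 4 of 12 passed for Omen against Inter, and 3 on the unscaled deposited table. Omen against Inter could be set within the second day for 2 Omen arrays alone, where 1 probe passed.

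Among the other depots, Kid was higher than SC for CD3E (A_73_104727, 0.84 ± 0.21), both CD3G probes (0.99 ± 0.22 and 1.15 ± 0.21) and CD3D (A_73_P075101, 1.43 ± 0.26, with 1 of 12 SC arrays well above background), and lower for the bright CD3D probe, 5 of 12 in all beside 41.7% of all probes. Within the first scan day, with 5 Kid and 11 SC arrays, 4 of the 12 passed. Inter against SC had 5 of 12 beside 48.8%, with both CD3G probes and CD3D (A_73_P075101) higher in Inter and CD79A and the bright CD3D probe lower. With the normexp correction 8 passed, and these CD3G differences turned to -0.36 and -0.12 and that of CD3D to -0.61, as did, for Kid against SC, those of CD3D (-0.41) and CD3G (A_73_111056, -0.06). IMF against SC had 3 of 12 beside 64.2%, both CCR7 probes and CD79A, all lower in IMF, and CD3E, CD3G, CD2 and CD5 did not pass. With the normexp correction 10 passed, and 6 did on the unscaled deposited table, with CD79A turned to 0.31. Against the 1 SC array of the third scan day the CCR7 differences of IMF were -2.13 ± 0.68 and -2.25 ± 0.82 and that of CD79A -0.42 ± 0.29, and none of the 12 passed with an arm of 1 array. Against IMF, Inter had 8 of 12 beside 62.7% and Kid 7 of 12 beside 55.8%, and CCR7 was higher in both (1.46 ± 0.31 and 1.34 ± 0.35, A_73_P467773). Kid against Inter had 4 of 12 beside 15.4%, both CD3E probes, CD79A and MS4A1, all higher in Kid, and within the second scan day 3 of 12 passed. With scan day as a term for these 2 depots 1 passed, with slide as a random block 2, and 1 without and 2 with scaling of the deposited table. The third scan day held 1 Kid array, and the differences from IMF of the 7 probes there, from 0.45 to 1.01 for the 6 that were higher in Kid and -0.30 for the bright CD3D probe, kept their direction and did not pass with an arm of 1 array.

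The comparison of IMF with LD sets the dissected fat against the muscle around it. Between IMF and LD 5 of 12 probes passed, beside 75.3% of all probes: both CCR7 probes (1.21 ± 0.31 and 1.26 ± 0.31), CD5 (0.61 ± 0.21) and the bright CD3D probe (0.68 ± 0.15) were higher in IMF, and CD3G (A_73_P037986) was lower (-0.52 ± 0.17). In LD the CCR7 probes were well above background on 12 and 15 of 36 arrays and CD5 on 7, so these sizes rest on spots mostly near background. With the normexp correction 9 passed, and CCR7 (-0.40 and -0.27) and CD5 (-0.58), with median LD signals between 6.49 and 7.99, turned. The CD3E differences of 0.07 ± 0.17 and -0.10 ± 0.24 by its 2 probes did not pass. The summed level of 8 skeletal muscle genes lay between 9.75 and 11.29 (log2) on the IMF arrays, between 11.50 and 12.30 on the LD arrays and between -0.37 and 0.63 on the Omen arrays. It reached 9.52 on 1 Inter array (Inter median 0.83) and 3.99 on 1 Kid array (Kid median 0.66), and its part in these differences was not tested. Between Omen and LD 11 of 12 passed, beside 82.1%, all higher in Omen, with CD79A the exception. The log2 difference of CCR7 (A_73_P467773) was 3.45 ± 0.33, against LD spots well above background on 15 of 36 arrays. With the normexp correction 8 passed and 6 turned to lower in Omen: CD2 (-0.04), CD3D (A_73_P075101, -0.51), CD3E (A_73_P109026, -0.20), CD3G (A_73_P037986, -0.26), CD5 (-0.44) and MS4A1 (-0.68).

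Over the 60 fat arrays all 12 probes passed the limma F test for depot, beside 87.2% of all probes. None passed the limma F test for breed, beside 3.2%, and none of the 12 had an unadjusted p under 0.05. This fit took the arrays as independent, though depots of the same steer recur among the 60. The depot by breed interaction passed for none of the 12 and for 0% of all probes by limma, and 4 of the 12 had an unadjusted p under 0.05. The Omen means of CCR7 (A_73_P467773) were -3.52 ± 0.65 for the 4 Angus arrays, -2.71 ± 0.31 for the 4 Hereford arrays and -1.30 ± 1.12 for the 4 of Wagyu x Angus (SD), which held the single highest array of the series. Between Supplemental_Feeding and Pasture_Feeding in LD, 1 of 12 probes passed, beside 11.2%: CD2 was 1.29-fold lower with the supplement (-0.37 ± 0.11, limma adjusted p = 0.022), a call lost with the normexp correction (-0.12) and on the deposited table scaled to the 75th percentile (-0.26). The supplemented arrays of each background filled a slide of their own, so feeding cannot be told apart from slide. The labels do not mark the kills.

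Other genes of T cells were taken from a list. Of 32 listed genes 21 had a tested probe, and 13 were higher and 2 lower in Omen than in SC, with a median difference of 0.84 beside -0.03 over all probes. Over all probes 45.7% passed in this comparison, 20.5% higher in Omen, and the other counts of genes between Omen and SC stand beside the same shares. Among them were ZAP70 (1.86), the kinase that binds the CD3 chains, and LEF1 (1.56), a transcription factor of naive T cells. ZAP70 also passed against Inter (1.26). The 2 lower, named after their values were seen, were LAT (-0.89), an adaptor of the T cell receptor, and CD4 (-0.39), the coreceptor of helper T cells. The summed level of the 21 genes, a sum that bright probes dominate, ran the other way, from 4.42 over a median of 4.89 to 5.35 (log2) in Omen, from 5.08 over 5.19 to 5.43 in SC and from 5.79 over 6.42 to 7.04 in LD. In the B cell list, 10 of 22 genes were measured, 1 rose and 2 fell in Omen against SC, with a median of 0.07: BLNK, an adaptor of the B cell receptor, by 0.82, and PAX5 (-0.70) and EBF1 (-0.36), transcription factors of the B lineage. Which cells of the fat gave these signals was not tested, so they are not a measure of B cells alone. Against IMF 8 of these 10 genes were higher and 2 lower in Omen, with a median of 1.20, beside 28.4% of all probes higher. Against Kid 0 of the 10 B cell genes and 1 of the 21 T cell genes passed by limma, beside 12.1% of all probes.

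**Figure D3:**
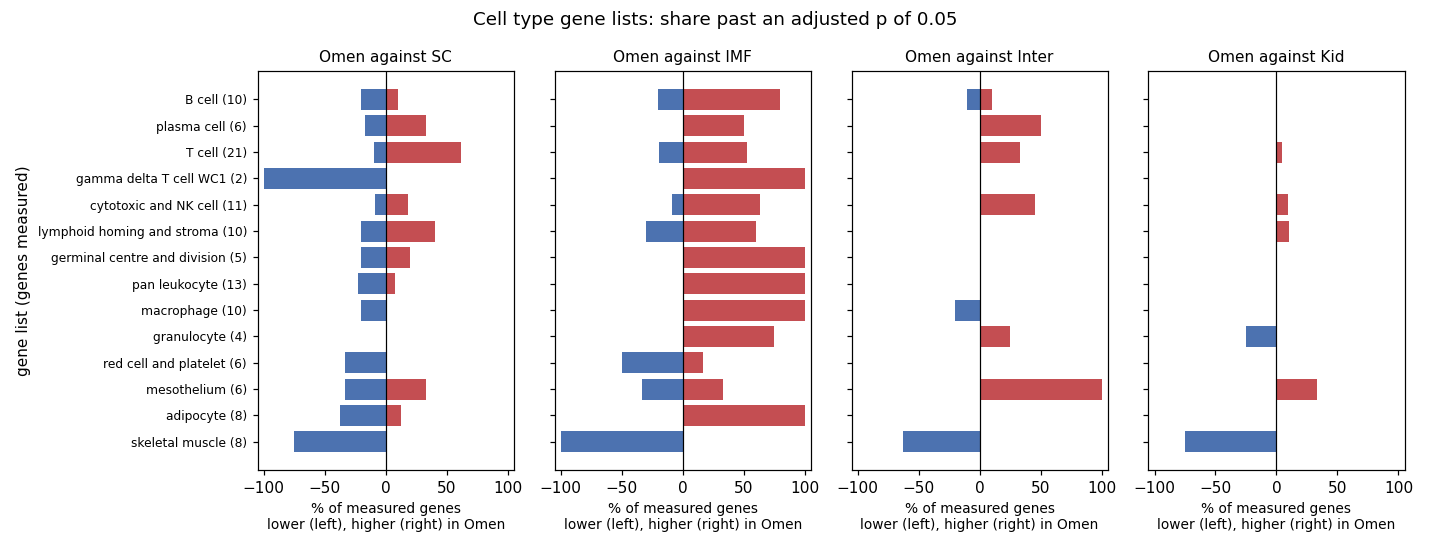
Share of the measured genes of each cell type list that passed a limma adjusted p of 0.05 in Omen against SC, IMF, Inter and Kid (percent; red to the right for higher, blue to the left for lower in Omen). The T cell list has 13 of 21 genes higher against SC, the B cell list 1 of 10.

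Lymphoid homing genes were mixed, with 4 of 10 higher and 2 lower in Omen than in SC. CXCR4, a chemokine receptor of many leukocytes, was 2.71 higher and CCL19, a ligand of CCR7, 1.92 higher, while GLYCAM1 was lower (-0.74). In the list of germinal centre and division, RGS13 was 1.99 higher and TYMS lower (-0.43). Both measured genes of the WC1 list, which marks bovine gamma delta T cells, fell: CD163L1 (-2.18) and WC1.3 (-1.22). Of 11 genes of cytotoxic and natural killer cells 2 were higher and 1 lower: KLRK1, an activating receptor (1.05), the chemokine XCL1 (0.55) and the granule protease GZMA (-0.36).

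Markers of other cells moved as well. The macrophage gene CD163 was lower in Omen than in SC (-2.29), and so was VSIG4 (-1.18), with 0 of 10 macrophage genes higher and 2 lower. MSLN and KRT18, genes of the mesothelium that covers the omentum, were 3.02 and 2.52 higher in Omen than in SC, while 2 of the 6 were lower, the keratin KRT19 (-0.48) among them, and the summed level of the 6 measured mesothelial genes ran from 4.97 to 6.05 (log2) in Omen and from 5.51 to 6.04 in SC. Against IMF all 13 pan leukocyte genes and all 10 macrophage genes were higher in Omen, and so were all 8 adipocyte genes, beside 28.4% of all probes. Their part in the differences of the B cell and T cell genes was not tested.

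Single arrays were set against the median of their tissue, as the mean over CD79A and MS4A1 for B cells and over CD3D, CD3E, CD3G, CD2 and CD5, with 1 probe a gene, for T cells. None of the 96 arrays had a mean more than 2 (log2) above or below the median. Both means include a bright probe that varied little, for CD79A with an SD of 0.11 (SC) to 0.40 (Inter) in the fat depots. The limit was therefore hard to reach for 1 gene that stood out. The highest mean for T cells was on the Omen array of a Wagyu x Angus steer on slide 11, position 4, with a mean of 0.80 and the highest Omen value of 10 of the 12 probes. On it CCR7 was 2.86 above the Omen median, CD3E 1.35, CD3G 1.44 (A_73_111056) and CD5 1.03, while the bright CD3D probe was 0.10 above. Without that array the difference of CCR7 between Omen and SC was 0.95 (A_73_P467773), the lowest when any 1 array was left out.

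**Figure D4:**
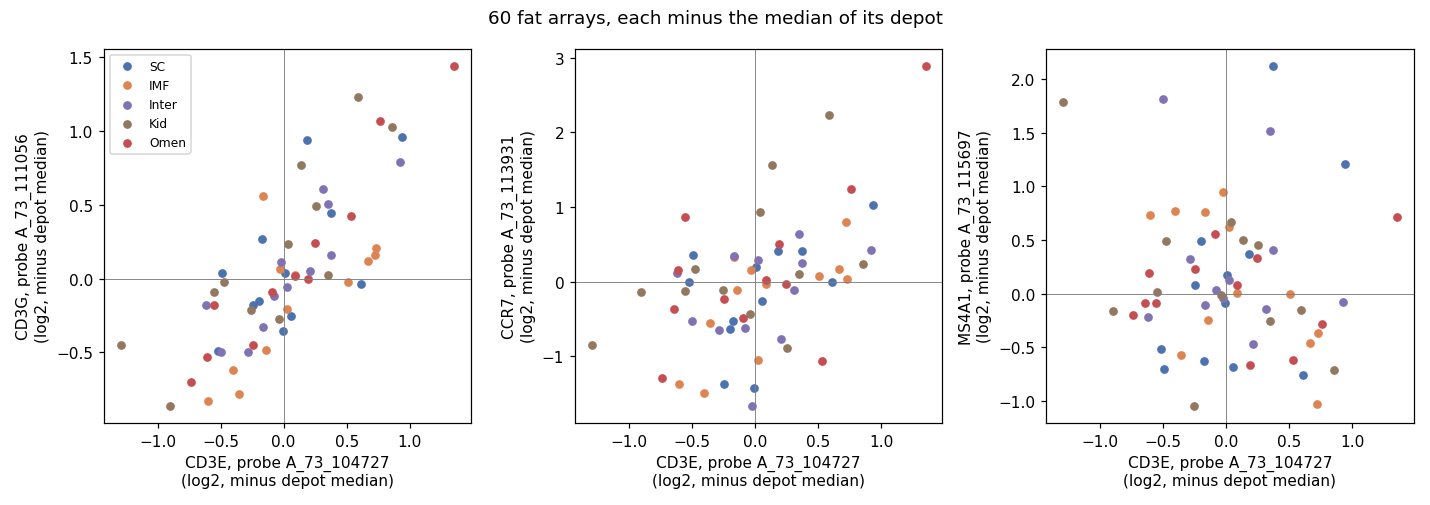
CD3G, CCR7 and MS4A1 against CD3E on the 60 fat arrays, each value minus the median of its depot (log2), coloured by depot. CD3G and CCR7 rise with CD3E and the Omen array at the top right is that of slide 11, position 4, while MS4A1 by the dim probe A_73_115697 does not follow CD3E. The other MS4A1 probe, A_73_105053, is not shown, and had its highest Omen value (-4.21) on that array.

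CCR7 (A_73_P467773) was also 2.29 above the Kid median on the Hereford array of slide 21, position 1, with CD3D 1.29 (A_73_P075101) and CD3G 1.23 (A_73_111056) above, and that array had the highest Kid value of 6 of the 12 probes. It was high on 2 LD arrays too, an Angus array on slide 2, position 4 (2.31 above the LD median) and a Hereford array on slide 24, position 4 (2.04 above), and the latter had CD3E 1.73 and CD3G 1.92 above the median. For B cells the highest mean was on an Inter array of an Angus steer on slide 4, position 4 (1.25, with MS4A1 1.82 above the Inter median), followed by an SC array of Wagyu x Angus on slide 16, position 3 (0.97, with MS4A1 2.13 above). The next were on slide 4 again, the Inter Angus array of position 3 (0.95, with MS4A1 1.52 above) and the Kid Hereford array of position 2 (0.90, with MS4A1 1.78 above), and the part of the slide was not tested. On the SC array of slide 16 CD3E was 0.38 above its median, and the T cell mean was 0.16. These MS4A1 values are those of probe A_73_115697. The other MS4A1 probe, A_73_105053, read -8.32 on that SC array, not well above background, beside an SC median of -7.87. On the Inter arrays of slide 4, positions 4 and 3, it read -6.17 and -6.59 (Inter median -6.77). On the Kid array of slide 4, position 2, it read -6.01 (Kid median -6.22).

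The genes most like the mean of the T cell genes over the 60 fat arrays, after the depot means were subtracted, were LCK, the kinase of the T cell receptor (r = 0.83), TRAF3IP3 (0.79), LOC614871 (0.78), TBC1D10C (0.77) and RASAL3 (0.76), among 19010 probes. Those most like the mean of CD79A and MS4A1 were DEFB122 (0.83), BATF2 (0.75), HEYL (0.74), MYBPC3 (0.73) and MED13L (0.73). Within the fat arrays CD3E (A_73_104727) had an r of 0.82 with CD3G (A_73_111056) and of -0.13 with the dim MS4A1 probe A_73_115697, the only MS4A1 probe correlated. These values describe arrays that share slides, scan days and a scaling.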

How the data were processed

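The authors deposited, per array, scanner intensity values from Agilent Feature Extraction 10.7.3.1, including a background-subtracted processed signal, and a log2 table per probe that equals the logged median signal of a spot after its local background was subtracted, with differences under 1 set to 1 and no scaling between arrays (all 3285792 values within 0.001). Bovine Agilent 4x44K arrays had been hybridised by the authors with total RNA, and the study normalised them with a mixed model that was not used here. Here log2 of the processed signal, outlier spots left out, was centred on each array's 75th percentile. The 34227 probes of the deposited table were tested, of which 62.7% had a gene name. Genes of several probes were represented by the probe well above background on most arrays, and all probes of the 9 genes are given.

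Groups came from the labels. Tissues were compared on their own arrays with limma 3.58.1 in R 4.3.3, and depot, breed and diet by limma F or moderated tests, adjusted by Benjamini-Hochberg over all probes at 0.05. The array counts limit the precision. Python 3.11.15 (numpy 2.4.6, pandas 2.3.3, scipy 1.17.1, matplotlib 3.10.9) served for summaries. On simulated data of 34227 probes for Omen against SC, limma called 164 of 200 probes that carried a simulated difference of 1 log2 unit, with 3 false calls among the rest. Members and lists were chosen with earlier results of these data known. Named genes outside the members were up to 3 of each list with the largest difference between Omen and SC among those past the threshold, and the 5 most similar to each member mean by Pearson r over the fat arrays, among probes well above background on at least 50% of them. 1 result that this rule names is not reported here. Alternatives were other scalings and background corrections, the deposited table, all probes, a filter on dim probes, the methods' t-test, breed, slide, scan day or replicate number in the fit, means over probes, and arrays left out. Fits within a scan day, without 2 arrays with many outlier spots and of the depot by breed interaction, and the depot, breed and diet tests on the scaled deposited table and on all probes, were added after seeing the data. Array-to-steer links were not used.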

Additional observations from a re-analysis of the deposited data

Results flagged for a closer look

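Each gene, by 1 probe, was examined in groups of 4 or 8 arrays of the same tissue, breed and feeding, for a highest or lowest array that stood far from the next beside the range of its group. Of 168 groups, 8 had such an array, and chance gives about 1 in 20. In Omen, CCR7 was -2.55 on the Angus array of slide 19, position 3, above the next at -3.76, and -3.18 on the Hereford array of slide 7, position 4, below the next at -2.61. MS4A1 was -3.61 on the SC array of Wagyu x Angus on slide 16, position 3, where the next was -6.36. The other MS4A1 probe was not well above background on that array. CD3E was -2.47 on the Inter Angus array of slide 4, position 4, below the next at -1.66, and CD5 was -6.10 on the Kid Hereford array of slide 4, position 2, below the next at -4.91. In LD, CD2 was -2.71 on the supplemented Hereford array of slide 12, position 3, next to -3.50. CD79A was 1.18 on the pasture Angus array of slide 23, position 1, next to 0.90, and 1.02 on the supplemented Wagyu x Angus array of slide 6, position 1, next to 0.61.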

How the results depend on the processing

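Numbers of the 12 probes that passed, and differences of single probes, are given where they moved. Breed as a covariate, a filter on dim probes, quantile normalization, all probes, the pasture arrays alone for LD and the methods' t-test turned no difference and moved no count of probes by more than 1.5 times. With the normexp correction, 5 of the 12 probes passed for Omen minus SC (1 higher and 4 lower, against 9 and 2), 10 for IMF minus SC, 8 for Inter minus SC, 9 for IMF minus LD and 0 for supplement against pasture. Differences turned to -0.27 (CD3D A_73_P075101), -0.055 (CD3E A_73_P109026), -0.30 (CD5) and -0.48 (MS4A1) for Omen minus SC, to -0.12 (MS4A1) for Omen minus IMF, to -0.61 (CD3D A_73_P075101), -0.36 (CD3G A_73_111056) and -0.12 (CD3G A_73_P037986) for Inter minus SC, to -0.41 (CD3D A_73_P075101) and -0.058 (CD3G A_73_111056) for Kid minus SC, to -0.098 (CD3D A_73_P075101) for Inter minus IMF, to -0.40 (CCR7 A_73_113931), -0.27 (CCR7 A_73_P467773) and -0.58 (CD5) for IMF minus LD, to -0.036 (CD2), -0.51 (CD3D A_73_P075101), -0.20 (CD3E A_73_P109026), -0.26 (CD3G A_73_P037986), -0.44 (CD5) and -0.68 (MS4A1) for Omen minus LD. With the deposited log2 table without scaling, 3 of the 12 probes passed for Omen minus Inter, 6 for IMF minus SC, 11 for Inter minus SC, 12 for Kid minus SC, 1 for Kid minus Inter, 10 for IMF minus LD and 2 for supplement against pasture. Differences turned to 0.54 (CD3D A_73_P049086) and 0.56 (CD79A) for Omen minus SC, to 0.026 (CD3D A_73_P049086) for Omen minus IMF, to -0.014 (CD3D A_73_P049086) and 0.17 (MS4A1) for Omen minus Kid, to 0.31 (CD79A) for IMF minus SC, to 0.46 (CD3D A_73_P049086) and 0.26 (CD79A) for Inter minus SC, to 0.56 (CD3D A_73_P049086) for Kid minus SC, to 0.041 (CD3D A_73_P049086) for Kid minus IMF, to 0.26 (CD3G A_73_P037986) for IMF minus LD, to 0.78 (CD79A) for Omen minus LD. With that table scaled to the 75th percentile, 2 of the 12 probes passed for Kid minus Inter and 0 for supplement against pasture. Differences turned to 0.045 (CD3G A_73_P037986) and 0.29 (MS4A1) for Omen minus Kid. With scan day as a term in the fit of 2 tissues, 0 of the 12 probes passed for Omen minus SC, 1 for Omen minus Inter, 0 for Kid minus IMF, 1 for Kid minus Inter and 3 for IMF minus LD. Differences turned to -0.065 (CD2), 0.062 (CD3D A_73_P049086), -0.25 (CD3E A_73_P109026) and -0.42 (MS4A1) for Omen minus SC, to -0.044 (CCR7 A_73_113931), -0.53 (CCR7 A_73_P467773) and -0.21 (CD3D A_73_P049086) for Omen minus Inter, to -0.064 (CD3D A_73_P049086) for Omen minus Kid. With scan day as a term over 96 arrays, 6 of the 12 probes passed for Omen minus SC and 5 for Inter minus IMF. Differences turned to -0.49 (MS4A1) for Omen minus SC, to 0.13 (CD3G A_73_P037986) for Omen minus Kid. With centring on the array mean, differences turned to -0.017 (CD3D A_73_P049086) for Omen minus Kid. With slide as a random block, 4 of the 12 probes passed for Omen minus Inter, 2 for Kid minus Inter and 3 for IMF minus LD. Differences turned to 0.020 (CD3G A_73_P037986) for Omen minus Kid. With the second scan day alone, 1 of the 12 probes passed for Omen minus Inter and 5 for Omen minus LD. Differences turned to -0.044 (CCR7 A_73_113931), -0.53 (CCR7 A_73_P467773) and -0.21 (CD3D A_73_P049086) for Omen minus Inter, to -0.26 (CCR7 A_73_P467773) and -0.22 (CD3D A_73_P049086) for Omen minus Kid, to -0.035 (CD2), -0.60 (CD3D A_73_P049086) and -0.46 (MS4A1) for Omen minus LD. With the third scan day alone, 0 of the 12 probes passed for Omen minus SC, 0 for IMF minus SC and 0 for Kid minus IMF. Differences turned to -0.065 (CD2), 0.062 (CD3D A_73_P049086), -0.25 (CD3E A_73_P109026) and -0.42 (MS4A1) for Omen minus SC, to 0.66 (CD3G A_73_P037986), 0.17 (CD79A) and 0.13 (MS4A1) for Omen minus Kid. With the replicate block, differences turned to 0.080 (CD3G A_73_P037986) for Omen minus Kid. With 2 arrays with many outlier spots left out, differences turned to 0.043 (CD3G A_73_P037986) for Omen minus Kid. With one fit over the 60 fat arrays, 1 of the 12 probes passed for Omen minus Kid. With means over the probes of a gene, 2 of the 8 genes passed for IMF minus LD. Leaving out each array in turn, in the comparisons of Omen with the other depots, gave 10 to 12 probes for Omen minus SC, 9 for Omen minus IMF, 6 to 9 for Omen minus Inter and 0 to 1 for Omen minus Kid, and turned only differences between Omen and Kid, CD3G (A_73_P037986) from -0.14 to 0.063 and MS4A1 from -0.17 to 0.085. With the replicate block 11 of the 12 probes passed for Omen minus SC, 9 for Omen minus IMF, 7 for Omen minus Inter and 0 for Omen minus Kid. Arrays of the same replicate number had a mean correlation of 0.0119 after the group means were subtracted, so the numbers were not taken as pairs. The replicate number of each array equals its position on the slide, so the replicate block is a block of position. Fits within a scan day and without 2 arrays were chosen after seeing the data. A fit without arrays that stand out was not run, since no array met that rule. The causes of these changes were not tested. Dim spots, steers that recur between depots without a label of which, and scan days that largely follow SC, IMF, Inter and Omen limit these comparisons.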

Other observations

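Of the 5 probes outside the deposited table, the CCR7 probe A_73_P102956 was well above background on 1 of 12 SC and 8 of 12 Omen arrays, with a log2 difference of 0.93 ± 0.30 (limma adjusted p = 0.0152, all probes tested), while CD5 (A_73_P446726, 0.68) and CD79A (A_73_P109866, 0.16) did not pass. The CD5 probe was well above background on 5 of 12 Omen arrays and on none of the LD arrays.

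In Omen against SC, 2 of 6 plasma cell genes were higher and 1 lower, with XBP1 (0.69) and DERL3 (0.41) higher and SDC1 (-0.83) lower. Of 13 pan leukocyte genes, CD48 was higher (0.84) and 3 were lower, LSP1 (-0.39) and HCLS1 (-0.37) among them. None of 4 granulocyte genes passed by limma, and 2 of 6 red cell and platelet genes were lower (ITGA2B -0.65, AHSP -0.36). Of 8 adipocyte genes LEP was higher (0.46) and 3 were lower, CIDEA (-0.88) and FABP4 (-0.43) among them, and 6 of 8 muscle genes were lower, among them MYH1 (-2.26), MYL2 (-1.99) and MYH2 (-1.41).

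The lowest T cell mean was on the Kid array of Wagyu x Angus on slide 21, position 4, at -0.81 from the Kid median, and the lowest B cell mean on the LD array of Hereford on slide 12, position 2, at -1.32.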
